A study of Homo sapiens with 6 samples.

Results

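The library of this screen holds 60 guides against 6 targets that have close copies elsewhere in the human genome, out of 3653 guides in all. The targets are the genes LGALS7B, FRG2, CSH2 and METTL2B and the pseudogenes SUMO1P3 and AGAP12P, and the members are all guides that the count table assigns to one of these names. Each target has 10 guides, all numbered above 1495, in 2 runs of 5 consecutive numbers, the first up to 3240 and the second above 3240, up to 3481. No member guide is among those numbered up to 1495. One guide of AGAP12P, sgRNA_3267, had 0 counts in all 6 libraries, day 0 included, so 59 of the 60 guides could be followed. The targets were chosen for this description with their depletion in these libraries known, so their changes against day 0 are given as a description. Test calls against day 0 are given only beside the calls over all guides, and they are no support for the choice.

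The cells are of the human line HS-SY-II, which comes from a synovial sarcoma with the SS18::SSX1 fusion and here expresses Cas9. All groups carry Cas9 and the guide library, which was delivered by transduction and selected with puromycin. The groups are tumours (in vivo), for which transduced cells in Matrigel were placed under the skin of athymic nude mice and grown to 1 cm3, cells cultured for 14 days (day 14), and the cells frozen after selection (day 0), with 2 libraries each. Tumours in athymic mice grow in a host without mature T cells, and the line stands for 1 patient's tumour. The labels number the tumours replicates 1 and 2, whereas the names in an appendix of the study place both in mice of replicate 1, and this was not settled.

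A guide RNA directs Cas9 to cut wherever the genome holds the guide's match next to a short motif, the PAM. A guide against a duplicated gene can therefore cut at several loci, and it can disrupt paralogues, which are genes derived from one ancestor, along with its named target. Several cuts in one genome are known to slow the growth of dividing cells whichever genes are hit, an effect described for amplified and repeated regions.

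The guide sequences themselves were not used here, so the extent of copying was read from the reference genome. For each library gene that could be matched by name (347 of 348), all 20-base sites next to an NGG motif in the coding exons of its canonical transcript (GENCODE v44, hg38), or in the exons of a non-coding gene, were listed and matched exactly to the whole genome. The median gene had more than 1 exact match for 0.361% of its sites. The share was 93.6% for LGALS7B (88 of 94 sites), 91.1% for CSH2 (92 of 101), 90.7% for FRG2 (117 of 129), 87.1% for AGAP12P (303 of 348), 73.3% for SUMO1P3 (22 of 30) and 72.7% for METTL2B (96 of 132). With 1 mismatch allowed it was 91.7% to 100% for each of the 6. In this reference all 6 targets thus have close copies, and by this share they ranked between 4 and 15 among the genes searched. To show how far the copies reach, the site with the most exact matches in each target but SUMO1P3 is printed below with the PAM in capitals, and for LGALS7B, METTL2B and SUMO1P3 a site found once. These are sites of the reference and not the guides of the library.
LGALS7B, chr19:38790685-38790707, minus strand, 2 matches: cagcaggtttacatggaaccTGG
LGALS7B, chr19:38790736-38790758, minus strand, 1 match: cagccgggggttgaaatgcaGGG
FRG2, chr4:190027107-190027129, minus strand, 8 matches: cagatctcctttacagaaaaGGG
CSH2, chr17:63872185-63872207, minus strand, 5 matches: cttcaggaaggacatggacaAGG
SUMO1P3, chr1:160317567-160317589, plus strand, 1 match: gcgttccaatgaattcattcAGG
AGAP12P, chr10:48028571-48028593, minus strand, 18 matches: cagaggaactctcaaacagaTGG
METTL2B, chr7:128476806-128476828, minus strand, 2 matches: tccgaactgctgcctcttatCGG
METTL2B, chr7:128479418-128479440, minus strand, 1 match: gttacattctcctccacaggAGG

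The copies differ in kind and place. LGALS7B (chr19:38789200-38791754) encodes galectin-7, a sugar-binding protein of stratified epithelia, and its only copy by exact match is LGALS7, 15.68 kb away on the same chromosome, which shares 88 of its 94 sites. METTL2B (chr7:128476729-128506602) encodes an enzyme that methylates tRNA, and its copy METTL2A lies on chromosome 17 and shares 96 of 132 sites. CSH2 (chr17:63872012-63873766) encodes placental lactogen, a hormone of the placenta, and lies in the growth hormone cluster. Of its 101 sites 91 are shared with CSH1, 48 with CSHL1, 25 with GH1, the pituitary growth hormone, and 18 with GH2. FRG2 (chr4:190024367-190027257) lies near the end of chromosome 4, close to the repeat array linked to facioscapulohumeral muscular dystrophy, and its copies are spread over several chromosomes. Of its 129 sites 115 are shared with FRG2B on chromosome 10, 69 with FRG2C on chromosome 3 and 50 with FRG2EP on chromosome 20.

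SUMO1P3 (chr1:160317403-160317706) is a processed pseudogene, a copy made from a spliced message. It lies in an intron of COPA, which encodes a subunit of the coatomer that carries cargo from the Golgi, and 0 annotated COPA exons overlap it. Of its 30 sites 19 are shared with the pseudogene SUMO1P4 on chromosome 19. AGAP12P (chr10:48009873-48031640) belongs to a family of genes and pseudogenes for Arf GTPase-activating proteins on chromosome 10. It has the most copies of the 6, with a median of 8 exact matches a site against 2 or 3 for the others, and shares 267 of 342 distinct sites with AGAP9, 248 with AGAP4, 237 with AGAP5 and 224 with AGAP6.

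Depth was 3394352 to 21854232 counts per library, with day 0 replicate 1 the deepest, and the member guides had 179 to 13229 counts each at day 0 (sgRNA_3267 left out). Counts were scaled by TMM, and the 3607 guides that averaged 30 counts or more at day 0 were kept. Levels are given in CPM, the guide's share of the scaled library times 1000000. The change in a single library is log2(CPM + 1) minus the mean of that value over the day 0 libraries, and fitted log2 fold changes are from edgeR. With this scaling the median over all kept guides was 0.01 at day 14 and 0.02 in vivo. The non-targeting guides, taken by their name to match no human site, stood at 0.50 and 0.57. Scaled to those guides, all log2 fold changes against day 0 were lower by 0.51 at day 14 and by 0.85 in vivo.

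Over the 59 guides the log2 fold change had a median of -1.36 at day 14 and -1.81 in vivo, relative to day 0. Fitted values lay below 0 for 52 guides at day 14 and for 49 in vivo. This held for 1786 and 1784 of all 3607 kept guides. It held for 1429 and 1261 of the 1873 kept guides of other genes numbered above 1495. In each of the 4 later libraries 39 member guides were lower than the day 0 mean, a count taken for the members only. At least 4-fold lower in both cultures were 11 of 59 guides, where 4.77% of all kept guides were. In both tumours 22 of 59 were, against 8.43% of all kept guides, and 7 met this in all 4 libraries, against 3.44%. At an unadjusted p under 0.05 of edgeR's quasi-likelihood test 15 guides were lower at day 14, where 7.18% of all guides were, and 25 in vivo, where 12.8% were. All member guides are numbered above 1495, and among the 1873 kept guides of other genes with such numbers 11.9% were lower at day 14 and 20.2% in vivo by this test. Those guides had medians of -0.56 and -0.58, and 7.74% and 13.5% of them were at least 4-fold lower in both cultures and in both tumours. After Benjamini-Hochberg adjustment edgeR called 0 member guides, and 0 guides of the library, lower at day 14, and it called 3 member guides in vivo, where 1.14% of all guides were called. DESeq2 called 8 member guides of 125 guides in all at day 14 and 24 of 370 in vivo, and limma 3 of 48 and 19 of 260. The 3 member guides that edgeR called in vivo are LGALS7B sgRNA_3443, CSH2 sgRNA_2465 and AGAP12P sgRNA_3269. With the replicate number as a block the 3 in vivo calls became 0, as they did in a fit of the tumours and day 0 alone, where 0 guides of the library were called. In a fit of day 14 and day 0 alone 16 member guides were called, of 293 guides in all. Since the targets were picked from these contrasts, the member counts carry no weight against those of all guides.

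At day 14 the medians of 5 targets were below -1 and that of AGAP12P was not. The medians over guides at day 14 were -3.06 for LGALS7B, -1.51 for FRG2, -1.39 for SUMO1P3, -1.24 for CSH2, -1.16 for METTL2B and -0.01 for AGAP12P. In vivo they were -2.66 for FRG2, -2.38 for CSH2, -2.0 for LGALS7B, -1.87 for SUMO1P3, -0.83 for METTL2B and 0.05 for AGAP12P. Leaving out 1 library moved some of these by more than 1.5 times. CSH2 at day 14 was at -0.78 without day 0 replicate 1, and without in vivo replicate 1 FRG2 was at -4.03 and METTL2B at -1.69 in vivo. The values of AGAP12P stayed near 0, from -0.075 to 0.12 at day 14 and from -0.075 to 0.32 in vivo. In both orders each pair of neighbours differed by less than the larger SD over guides of the pair. This SD was 0.56 (CSH2) to 2.46 (AGAP12P) at day 14 and 1.46 (METTL2B) to 3.61 (AGAP12P) in vivo.

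LGALS7B had the lowest median of the 6 at day 14, and its guides also had the largest median log2 difference between the cultures, 1.01 in size. All 10 had fitted values below 0 in both arms. Guide sgRNA_2936 had 2.61 and 9.76 CPM at day 14 and 3.33 and 10.3 CPM in the tumours, against 307.5 and 144.1 CPM at day 0. Guide sgRNA_3443 had 24.6 and 41.2 CPM at day 14 and 3.88 and 2.59 CPM in the tumours, against 358.6 and 205.7 CPM at day 0. For both guides every later library lay far below both day 0 libraries.

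Other LGALS7B guides were lost in some libraries only. Guide sgRNA_3442 had 1.04 and 0.89 CPM at day 14, from 4 counts in each culture. It had 2.22 CPM in tumour 1 and 136.5 CPM in tumour 2 (8 and 897 counts), against 88.9 and 108.7 CPM at day 0, so that tumour 2 lay above both day 0 libraries. Guide sgRNA_2937 had 24.0 and 1.33 CPM at day 14 and 21.3 and 28.6 CPM in the tumours, against 131.1 and 73.1 CPM at day 0. Guide sgRNA_3446 was nearly kept, at 150.2 and 60.8 CPM at day 14 and 212.9 and 114.7 CPM in the tumours, against 269.2 and 191.5 CPM at day 0, and its tumour levels overlapped those of day 0. By run of numbers, the medians of the first 5 guides were -3.32 at day 14 and -2.68 in vivo, and those of the second 5 were -1.39 and -0.51.

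FRG2 was lower throughout, with all 10 guides below the day 0 mean in each of the 4 later libraries. Its fitted values ran from -5.02 to -0.49 at day 14 and from -6.33 to -0.31 in vivo. Guide sgRNA_3293 had 9.40 and 1.11 CPM at day 14 and 2.22 and 1.98 CPM in the tumours, against 221.9 and 117.6 CPM at day 0. Guide sgRNA_3294 had 2.87 and 31.9 CPM at day 14 and 1.94 and 12.3 CPM in the tumours, against 269.1 and 262.5 CPM at day 0. Both were clear of day 0 in every later library, although the libraries of one group differed from each other by more than 4-fold in several of these pairs.

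The least affected FRG2 guide was sgRNA_1886, with 219.4 and 364.8 CPM at day 14 and 387.0 and 289.7 CPM in the tumours, against 489.4 and 350.2 CPM at day 0. Its levels overlapped those of day 0 in both arms. Guide sgRNA_1889 was low mainly in 1 tumour, at 77.0 and 41.2 CPM at day 14 and 43.5 and 0.91 CPM in the tumours, against 217.3 and 104.4 CPM at day 0. The medians of the 2 runs were -2.60 and -3.67 in vivo and -1.42 and -1.95 at day 14.

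CSH2 had a median close to that of FRG2 at day 14 (-1.24 against -1.51), but its guides spread less (SD 0.56 against 1.46). Fitted values at day 14 lay within -1.83 to -0.13 for its 10 guides, the narrowest range of the 6 targets, and 0 of the 10 was at least 4-fold lower in both cultures. In vivo they ranged from -5.40 to -0.21, and 5 guides were at least 4-fold lower in both tumours. Guide sgRNA_2465 had 113.4 and 203.6 CPM at day 14 and 15.2 and 24.0 CPM in the tumours, against 416.6 and 356.2 CPM at day 0. Guide sgRNA_2463 had 58.8 and 109.8 CPM at day 14 and 6.93 and 1.22 CPM in the tumours, against 134.9 and 143.3 CPM at day 0. For both the tumours lay below the cultures and the cultures below day 0, with no overlap.

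Guide sgRNA_3382 of CSH2 had 72.6 and 24.6 CPM at day 14 and 2.22 and 1.67 CPM in the tumours, against 130.1 and 34.8 CPM at day 0. Its day 0 libraries lay apart and the cultures overlapped them, while both tumours lay below. Guide sgRNA_2461 changed little, at 131.4 and 143.5 CPM at day 14 and 153.3 and 113.5 CPM in the tumours, against 175.4 and 132.2 CPM at day 0. Guide sgRNA_3384 had both signs within a group, at 50.4 and 188.0 CPM at day 14 and 20.0 and 154.1 CPM in the tumours, against 85.7 and 175.0 CPM at day 0.

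METTL2B was lower mainly by the first run of its guides. The 5 guides numbered 3221 to 3225 had a median of -1.59 at day 14 and -1.65 in vivo, and the 5 numbered 3477 to 3481 had -0.07 and -0.37. Guide sgRNA_3221 had 73.4 and 154.8 CPM at day 14 and 5.54 and 60.6 CPM in the tumours, against 482.7 and 531.2 CPM at day 0. Guide sgRNA_3224 had 95.6 and 84.5 CPM at day 14 and 34.9 and 49.0 CPM in the tumours, against 230.0 and 310.7 CPM at day 0. The exception of this run was sgRNA_3225, far below day 0 in day 14 replicate 1 only (35.5 CPM, and 177.6 CPM in replicate 2). It had 136.7 and 158.5 CPM in the tumours, against 186.0 and 139.6 CPM at day 0. In the other run sgRNA_3477 had 255.7 and 233.3 CPM at day 14 and 846.6 and 358.5 CPM in the tumours, against 292.8 and 202.6 CPM at day 0, so that both tumours were above day 0 and the cultures among its values. Guide sgRNA_3480 was the exception of that run at day 14, with 65 and 45 counts, and it had 438 and 39 counts in the tumours, against 1174 and 457 counts at day 0, where tumour 1 (121.4 CPM) lay above day 0 (47.8 and 88.9 CPM).

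Over the 6 targets together the runs lay closer at day 14 than in METTL2B. Their 30 guides of the first run had medians of -1.42 at day 14 and -2.0 in vivo, and their 29 kept guides of the second run -1.31 and -0.94. In the other genes whose guides are all numbered above 1495, the first run had medians of -0.49 and -0.45 (209 guides) and the second -0.29 and -0.16 (207 guides).

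Guides of SUMO1P3 moved both ways. Fitted values were below 0 for 8 of 10 at day 14 and for 7 in vivo, and 2 were at least 4-fold higher in a tumour. Guide sgRNA_1647 had 29.5 and 88.5 CPM at day 14 and 25.8 and 51.7 CPM in the tumours, against 385.7 and 160.4 CPM at day 0. Guide sgRNA_3259 had 27.2 and 41.7 CPM at day 14 and 2.77 and 22.2 CPM in the tumours, against 185.2 and 85.8 CPM at day 0. Both lay below day 0 in every later library.

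Guide sgRNA_1650 of SUMO1P3 was the opposite, with 317.3 and 291.6 CPM at day 14 and 832.5 and 1079.7 CPM in the tumours, against 254.5 and 222.5 CPM at day 0, higher in each later library than in either day 0 library. Guide sgRNA_3256 had 110.2 and 92.5 CPM at day 14, 1405 CPM in tumour 1 and 150.5 CPM in tumour 2, against 237.6 and 284.5 CPM at day 0. It was thus lower than day 0 in 3 libraries and higher in 1. These 2 guides set the summed level of the target in the tumours. Summed over its guides SUMO1P3 had 2785 and 1847 CPM in the tumours, against 2367 and 2287 CPM at day 0, a fitted log2 fold change of -0.01 where the median over guides was -1.87. In tumour 1, 5069 of the 10047 counts of the target were those of sgRNA_3256, and in tumour 2, 7096 of 12141 were those of sgRNA_1650.

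AGAP12P, the target with the most copies, had the fewest guides with lower values, 5 of 9 below 0 at day 14 and 3 of 9 in vivo. Of its 9 measured guides 2 were at least 4-fold lower in both tumours, and the other 7 had fitted values of -1.31 to 0.43 at day 14 and -0.12 to 4.70 in vivo. Guide sgRNA_3269 had 1.04 and 0.89 CPM at day 14 and 1.11 and 1.22 CPM in the tumours (4, 4, 4 and 8 counts), against 182.2 and 83.2 CPM at day 0. It is the only member guide with fewer than 10 counts in each of the 4 later libraries. Guide sgRNA_1674 had 9.40 and 61.6 CPM at day 14 and 6.10 and 1.22 CPM in the tumours, against 336.4 and 88.7 CPM at day 0, and was below day 0 throughout.

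Guide sgRNA_1675 of AGAP12P stayed near its day 0 level, with 479.0 and 417.8 CPM at day 14 and 278.3 and 631.3 CPM in the tumours, against 480.8 and 424.3 CPM at day 0. Guide sgRNA_1672 had 364.9 and 157.7 CPM at day 14, 399.7 CPM in tumour 1 and 9679 CPM in tumour 2, against 201.8 and 185.5 CPM at day 0. Its 63608 counts made it the most abundant guide of the library of tumour 2, where the target's guides together had 89542 counts. In tumour 1 it had 1442 counts. Guide sgRNA_1673 was also higher in tumour 2, at 2028 CPM, than in tumour 1, at 683.3 CPM, with 624.0 and 565.9 CPM at day 14, against 515.7 and 402.9 CPM at day 0. A level at least 4-fold above day 0 in 1 tumour or both was found for 4 member guides (2 of AGAP12P, 2 of SUMO1P3), where 11.4% of all kept guides had one.

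Whether the tumours differed from the cultures did not enter the choice of the targets on its own and was tested over all kept guides, although both arms are also in the contrasts that did. At an unadjusted p under 0.05 edgeR's quasi-likelihood test had 8 of 59 guides lower in the tumours than at day 14, where 5.54% of all guides were, and 6 higher, where 8.54% were. After Benjamini-Hochberg adjustment 0 member guides passed 0.05, and 1 guide of the whole library did (0.0277%, higher in vivo). DESeq2 called 9 member guides (217 in all) and limma 0 (18 in all). CSH2 is the target of 4 of the 8 lower guides. The log2 difference, in vivo minus day 14, was -3.01 ± 0.60 for sgRNA_2465 (SE, adjusted p = 0.161 by edgeR, 3.03e-04 by DESeq2), -4.39 ± 1.14 for sgRNA_2463 (adjusted p = 0.207, 8.06e-04 by DESeq2) and -4.64 ± 1.34 for sgRNA_3382 (adjusted p = 0.246, 0.00363 by DESeq2).

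Of the 6 higher guides, AGAP12P sgRNA_1672 had a log2 difference of 4.27 ± 1.29 (SE), which rests on tumour 2, and LGALS7B sgRNA_3442 one of 6.15 ± 1.90, which does too. SUMO1P3 sgRNA_1650 had 1.65 ± 0.41 with both tumours above both cultures. Their adjusted p-values by edgeR were 0.259, 0.269 and 0.194, and by DESeq2 4.54e-04, 0.00154 and 0.00625. Over all guides of a target the median difference, in vivo minus day 14, was -1.22 for FRG2 and -1.06 for CSH2, where 9 and 8 of 10 guides were below 0, and 0.64 for LGALS7B, where 3 of 10 were. It was -0.39 for SUMO1P3, 0.27 for AGAP12P and 0.10 for METTL2B. Over all kept guides it was 0.09, with 1672 of 3607 below 0.

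The same contrast was fitted on counts summed over the guides of a gene, over all 348 genes, as an analysis added after the guide values were seen. None of the 6 targets passed. CSH2 had a log2 difference, in vivo minus day 14, of -0.96 ± 0.30 (SE, adjusted p = 0.104 by edgeR). SUMO1P3 was at 0.97 ± 0.29 (adjusted p = 0.0988) and AGAP12P at 1.76 ± 0.56 (adjusted p = 0.104). LGALS7B, FRG2 and METTL2B had differences of 0.29, -0.57 and 0.19. By this test 4.02% of the genes were called higher in vivo and 0 lower (21.8% and 4.60% at an unadjusted p under 0.05).

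Libraries of one group differed for many member guides. The cultures were over 4-fold apart for 6 of 59 member guides (10.2%) and for 3.30% of all kept guides, and the tumours for 17 (28.8%) and for 22.3%. This held for 7 and 30 of the 75 kept guides of the other targets with close copies, and for 5.02% and 27.7% of all guides of other genes numbered above 1495. The day 0 libraries also differed for these guides. Day 0 replicate 2 was lower than replicate 1 for 38 of the 59, with a median log2 difference of -0.28, and for 1811 of all 3607, with a median of -0.00. Among the 11 member guides at least 4-fold lower in both cultures it was lower for 8, with a median of -0.80. Among the other library guides with such a loss it was lower for 128 of 161, with a median of -0.50, and among all others for 1645 of 3387. The part of this difference in the fold changes was not tested. Without day 0 replicate 1 the median of the member guides was -1.08 at day 14 and -1.23 in vivo.

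Other library genes varied widely, both those with many copies and those with few. More than 1 exact match was found for over 50% of the candidate sites in 26 further genes. Their medians over guides numbered above 1495 ran from -5.22 for RPL13, a ribosomal protein gene, to 0.54 for SIGLEC14 at day 14, with 8 of the 26 below -1, against 87 of the 315 genes with a smaller share. In vivo 10 of the 26 were below -1, against 114 of the 315. The 315 ran from -6.46 to 1.07 at day 14. The genes with many copies also include SSX1 (64.3% of sites), SSX3 (72.8%), SUMO2 (71.4%), RPL14 (71.25%) and RPS27A (83.0%). The paper lists SSX genes and SUMO2 among the dependencies selective for synovial sarcoma cells. Whether lower guides of such genes reflect the copies or the genes themselves was not tested. The median of the gene medians was -0.54 at day 14 and -0.56 in vivo for the 26, and -0.60 and -0.62 for the 315. For the 6 targets, chosen with their depletion known, it was -1.32 and -1.93. Among the 9 genes listed as targets with close copies by name, 75 kept guides had a median of -0.91 at day 14 and -0.80 in vivo. Of these RASA4B had medians of -1.87 and -2.28 and CHRFAM7A, a fusion gene with a copied part, -0.27 and 0.06, and they have more than 1 match for 95.8% and 95.9% of their sites. The 351 kept guides of the other genes with numbers above 1495 only had medians of -0.32 and -0.25. The list was made by name, so the 2 groups do not separate genes with copies from genes without. More than 1 match was found for 23.6% of the sites of ABCC6, which is listed. It was found for 72.2% of those of KRTAP10-1, which is among the other genes. These groups were compared by their values, without a test, and genes known as dependencies were not set apart in them.

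The genes whose medians in the 4 later libraries were nearest to each target, out of 312 other genes with at least 5 kept guides, were not the same for the 6. Distance is Euclidean over 4 log2 changes. Nearest to LGALS7B were GEMIN2 (1.26), RASA4B (1.44) and PPM1D (1.48). FRG2 was nearest to TINF2 (0.75), RHPN1 (1.13) and TADA2B (1.19). CSH2 was nearest to NAGLU (0.37), BICDL1 (0.51) and TINF2 (0.62). SUMO1P3 was nearest to TNS2 (0.76), TGFBRAP1 (0.77) and ARF3 (0.79), and METTL2B to EIF4EBP2 (0.33), TYW1B (0.44) and TGFBRAP1 (0.46). AGAP12P had DDR1 (0.15), ZNF597 (0.20) and CEACAM6 (0.24) beside it, all with medians near 0.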

How the data were processed

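Guide counts of 6 libraries of HS-SY-II cells with Cas9 were analysed, 2 each of tumours, day 14 cells and day 0 cells. The authors deposited whole-number counts per guide, mapped with MAGeCK to the custom library, and a second table of normalized signal values in which each library's counts are multiplied by 1 constant factor, where the sources used here do not give the rule. MAGeCK and hg38 are named without versions in the notes of the submitters. Column names gave the sample of every column, and 0 columns were left over.

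Members and lists were chosen with earlier results of these data known. All guides of the 6 targets are reported, and the genes most like each target were taken by Euclidean distance. Guides averaging 30 day 0 counts or more were kept, scaled by TMM and tested in 1 edgeR 4.0.16 quasi-likelihood fit of all libraries (R 4.3.3) with Benjamini-Hochberg adjustment at 0.05. Alternatives were DESeq2 1.42.0 and its size factors, limma 3.58.1 on the authors' deposited signal (log2 with 1 added), non-targeting guides as the scale, filters of 0 and 300 counts, fits without the third group, a replicate block, each library left out, and sums per gene. By the treatment protocol in the labels the screens were run in duplicate and cells left after the day 0 aliquot went into both arms, so equal replicate numbers were read as a pair at day 14 and day 0. Deviations from the group means correlated at 0.0694 between these, and those of the tumours at 0.00252 with day 14 and at 0.00198 with day 0. With 2 libraries a group, the main p-values measure only the spread between these libraries, pooled over all groups and moderated across guides. A p-value at day 14 thus also carries the spread of the tumours. PCR reads are not independent molecules. On data simulated from these libraries 99% of guides lowered 16-fold and 62% of those lowered 4-fold had an unadjusted p under 0.05 at day 14. Candidate sites with up to 100 matches were assigned to genes with Python 3.11.15 and pandas 2.3.3. One locus among the matches is not reported here.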

Additional observations from a re-analysis of the deposited data

How the results depend on the processing

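Apart from AGAP12P, the medians of the targets and of all member guides kept their sign in 202 of 202 alternative values. Of these, 52 moved by more than the spread between the libraries. One of the 52 is SUMO1P3 in vivo, at -0.0069 with counts summed per gene, where no change is left. The targets were chosen with their depletion known, and settings such as the filters barely alter a value, so the kept signs are no support. The median of AGAP12P lay near 0 and changed sign, at day 14 to 0.021 with median-ratio size factors and with DESeq2. In vivo it was -0.82 with scaling to the non-targeting guides, -0.052 with the replicate block and -0.62 with limma. The median of all kept guides was -0.83, -0.040 and -0.61 in these settings, so AGAP12P stayed near that of the library. As a mean over guides AGAP12P was at -0.56 in vivo. Its values reached -1.09 at day 14 as a mean over guides and 1.64 in vivo with counts summed per gene. With each library left out it was -0.075 to 0.12 at day 14 and -0.075 to 0.32 in vivo. Scaling to the non-targeting guides gave medians of the member guides of -1.87 at day 14 and -2.66 in vivo. With it 27 were lower at day 14 (15.0% of all guides). With limma the medians were -1.84 and -2.48, with 28 lower at day 14 (15.7% of all guides) and 1 higher in vivo than at day 14. In either direction limma had 11 member guides differing between the arms, against 435 of 3607 guides. The median of all kept guides moved as well, to -0.50 and -0.83 with the non-targeting scale and to -0.49 and -0.61 with limma. A mean over the member guides gave -1.57 at day 14. With each library left out the medians of the member guides were -1.45 to -1.08 at day 14 and -2.40 to -1.23 in vivo.

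Counts of member guides at an unadjusted p under 0.05 depended more on the setting. With an adjusted p they were 0 lower at day 14, 3 lower in vivo, and 0 lower and 0 higher in vivo than at day 14. Of all kept guides 0%, 1.14%, 0% and 0.0277% had these calls. A fit of the 2 groups compared gave 32 lower at day 14 (17.6% of all guides, where 7.18% were in the fit of all libraries). It gave 5 lower in vivo than at day 14. In either direction 10 member guides differed between the arms in that fit, against 312 of all 3607 kept guides. Under the replicate block 14 guides were lower at day 14 (6.60% of all guides) and 27 in vivo (12.3%). Between the arms 7 were lower in vivo and 5 higher, 12 in either direction, against 386 of 3607 guides. With both tumours paired to replicate 1 the block gave 4 lower in vivo than at day 14. In either direction 9 differed there, against 240 of 3607 guides. With each library left out the counts ran from 5 to 30 lower at day 14 (highest without a tumour, lowest without day 0 replicate 1), 16 to 34 lower in vivo, 4 to 17 lower and 2 to 8 higher in vivo than at day 14. Counts over all kept guides are not given for the fits with a library left out. Those ranges therefore do not show whether the members shifted more than the library. The causes of these shifts were not tested. All member guides are numbered above 1495, so adding lower numbers gives no other value. Guides of 4 to 8 counts in a library are near the limit of depth, and no guide sequences were used.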
